A study of Mus musculus with 8 samples.

Results

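The genes described here encode the subunits of the oxidative phosphorylation (OXPHOS) system, the 5 protein complexes of the inner mitochondrial membrane that carry electrons to oxygen and make ATP. They were chosen by name: a protein-coding gene was a member if its symbol began with mt-Nd, mt-Co, mt-Cytb, mt-Atp, Nduf, Uqcr, Cox4 to Cox8 or Atp5, or was Sdha, Sdhb, Sdhc or Sdhd, and if its mean over the 8 mice was at least 10 normalized counts. The rule found 102 members among the 20802 rows of the table. Mitochondrial DNA (mtDNA) encodes 13 of them and nuclear DNA 89, of which 79 are subunits and 10 are assembly factors that carry a subunit-like name. Cox8b and Cox6b2, complex IV isoforms known from muscle and testis, had means of 7.43 and 5.19 and fell short of the minimum. The rule compared no groups, and all 102 members were tested.

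Hippocampal RNA was sequenced from 8 male C57BL/6 mice at PND28, with 4 mice in each of the Anesthesia and Control groups. Beginning at PND16, the Anesthesia group was given ketamine, an anesthetic that blocks NMDA receptors, once a day at 35 mg/kg i.p., for 5 injections. Control mice had saline on the same schedule according to the deposited protocol, although their titles read untreated. The study's methods name a stranded total RNA kit and the labels a different kit that selects poly(A) RNA and keeps no strand, which bears on every value of mtDNA transcripts and of overlapping genes below. Values are normalized counts, that is, estimated reads per gene divided by a size factor per library. The low values place each library at approximately 15400000 to 22200000 reads, a rough estimate, as counts were not recovered from them.

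In mammals, complexes I, III, IV and V are built from subunits of both genomes, whereas complex II is encoded by nuclear genes alone. Complex I (NADH dehydrogenase) and complex II (succinate dehydrogenase) pass electrons to coenzyme Q, complex III (cytochrome bc1) hands them to cytochrome c, complex IV (cytochrome c oxidase) reduces oxygen, and complex V (ATP synthase) uses the proton gradient to make ATP. Both strands of mtDNA are transcribed as long precursors that are cut into messenger RNAs, while nuclear subunits have promoters of their own. Neurons depend on this system for most of their ATP, which synaptic transmission consumes.

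Some libraries stood apart before any member was compared. The hippocampal labels were borne out by Wfs1, a marker of CA1 pyramidal neurons, at 769 to 1242 normalized counts, and by Prox1, a marker of dentate granule neurons, at 957 to 2397. Transcripts of the choroid plexus, a tissue that lies against the hippocampus, differed widely, and the summed level of 15 of its markers was 89187, 5440, 4915 and 10444 normalized counts in Anesthesia replicates 1 to 4 and 4726, 47186, 106373 and 104056 in Control replicates 1 to 4. Anesthesia replicate 1 and Control replicates 2, 3 and 4 were thus rich in it, and the other 4 libraries were poor. Anesthesia replicate 3 and Control replicate 1 stood apart for OXPHOS members themselves, as set out below.

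The member with the smallest p was mt-Nd4l, a membrane subunit of complex I and among the shortest protein-coding genes of mtDNA. Its transcript has a near-identical row elsewhere in the table, the pseudogene Gm10222, a nuclear copy of mtDNA. Gm10222 is annotated on the minus strand of GRCm38 chr1:24612407-24612700, and mt-Nd4l on the plus strand of chrM:9877-10173. The sequence of mt-Nd4l is shown because all 294 bases of Gm10222 are identical to its first 294 bases, so that a read from within them has no base that tells the loci apart. Capitals mark the 3 bases at the end that Gm10222 lacks.
mt-Nd4l: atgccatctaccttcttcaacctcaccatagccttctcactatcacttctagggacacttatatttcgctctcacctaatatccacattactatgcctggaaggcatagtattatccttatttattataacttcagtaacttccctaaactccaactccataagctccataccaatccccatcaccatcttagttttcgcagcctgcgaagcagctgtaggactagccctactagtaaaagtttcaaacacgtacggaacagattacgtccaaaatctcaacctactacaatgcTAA

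The values of this pair were mirror images of each other. mt-Nd4l was listed at 0 in all 4 Anesthesia mice and in Control replicate 1, and at 48.0, 60.5 and 56.6 normalized counts in Control replicates 2, 3 and 4. Gm10222 was listed at 69.8, 73.9, 62.8 and 66.5 in Anesthesia replicates 1 to 4 and 61.9 in Control replicate 1, and at 0 in Control replicates 2, 3 and 4. In each of the 8 mice, therefore, all signal of the shared sequence stood on 1 of the 2 rows, and the split followed the groups in 7 of the 8. With limma, a linear model fitted across all genes, the adjusted p was 0.568 for both mt-Nd4l and Gm10222, and no fold is given because a whole group is at 0.

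Control replicate 1 decided that outcome. With it left out, mt-Nd4l had an adjusted p of 0.00102 by limma and Gm10222 had 7.93e-05, and they were the 2 genes called of 18887 tested, a share of 0.0106%. Summing the rows, a step chosen after the values were seen, gave 69.8, 73.9, 62.8 and 66.5 in the Anesthesia group against 61.9, 48.0, 60.5 and 56.6 in the Control group. The sums did not overlap, with every Anesthesia mouse above every Control mouse, and their log2 fold change was 0.27 ± 0.15 SE (adjusted p = 0.668 by limma). Without Control replicate 1 the summed log2 fold change was 0.31 with an adjusted p of 0.688 by limma, so the call on mt-Nd4l was not kept and its direction was reversed. Which locus the reads came from cannot be told apart from these values.

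**Figure D1:**
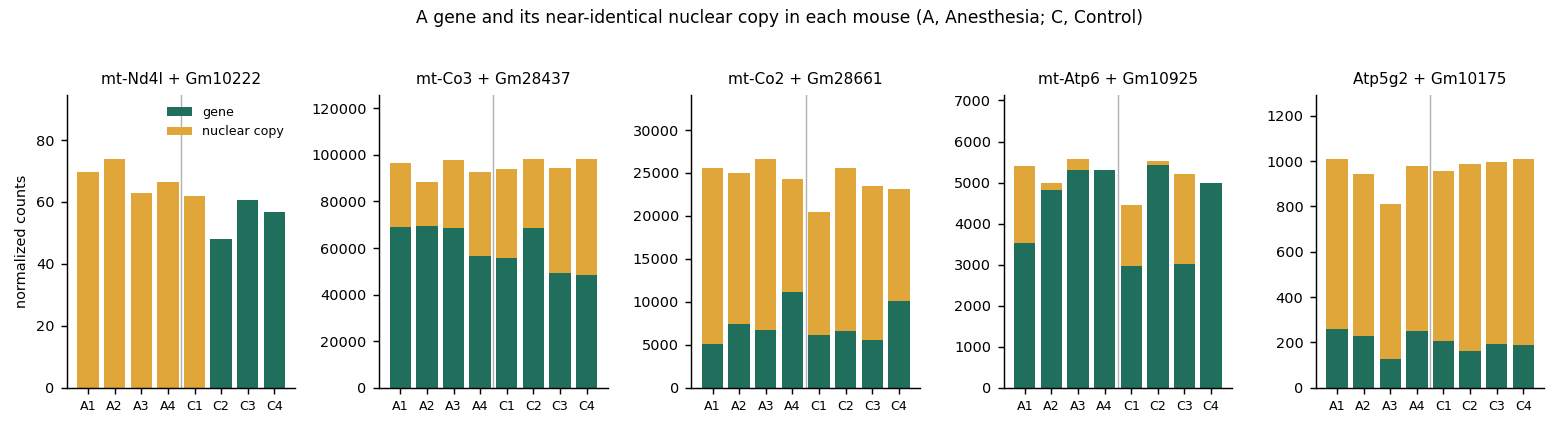
Normalized counts of 5 OXPHOS genes (green) stacked on their near-identical nuclear copy (yellow) in each mouse, with Anesthesia replicates 1 to 4 (A1 to A4) left of the grey line and Control replicates 1 to 4 (C1 to C4) right of it. The mt-Nd4l bars are wholly copy in A1 to A4 and C1 and wholly gene in C2 to C4, while the stacked heights stay between 48.0 and 73.9.

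Across the whole set, no member differed between the groups after correction. Of 102 members, 0 had an adjusted p under 0.05 in limma, as had 0% of the 18865 genes tested, and limma voom, the other test run, also called 0. The study's own DESeq2 test of these mice did call genes, which limma did not. At an unadjusted p under 0.05, 4 members were lower in the Anesthesia group, which is 3.92% of them against 3.27% of all genes, and 1 was higher, against 4.75% of all genes. The 4 were mt-Nd4l, Ndufa10, Ndufs1 and Uqcrc2, and the 1 was mt-Co3. The groups did not overlap for 3 members, Ndufb5, Ndufs1 and Uqcrc2, all lower in the Anesthesia group, against 2.23% of all genes in that direction and 2.81% in the other. Ndufs1 and Ndufb5 are named for these counts, after their values were seen.

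What the nuclear subunits shared was a small shift to the same side. Of 79 nuclear subunits, 67 were fitted lower in the Anesthesia group and 12 higher, and their median log2 fold change was -0.092, whereas 50.8% of all genes were fitted lower and their median was -0.004. The medians were -0.108 for the 36 nuclear subunits of complex I, -0.102 for the 4 of complex II, -0.078 for the 8 of complex III, -0.063 for the 15 of complex IV and -0.074 for the 16 of complex V. Their order was not kept without Anesthesia replicate 3, when they were -0.041, -0.056, -0.015, -0.019 and -0.025. These genes were measured in the same mice and are not independent, so no test was made over them. In bulk tissue, fewer cells of a type and less RNA per cell cannot be told apart. Nuclear subunits took 0.896%, 0.805%, 0.758% and 0.831% of all normalized counts in Anesthesia replicates 1 to 4 and 0.872%, 0.878%, 0.859% and 0.879% in Control replicates 1 to 4, so Anesthesia replicate 1 lay above every Control mouse and the other Anesthesia mice below every one.

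**Figure D2:**
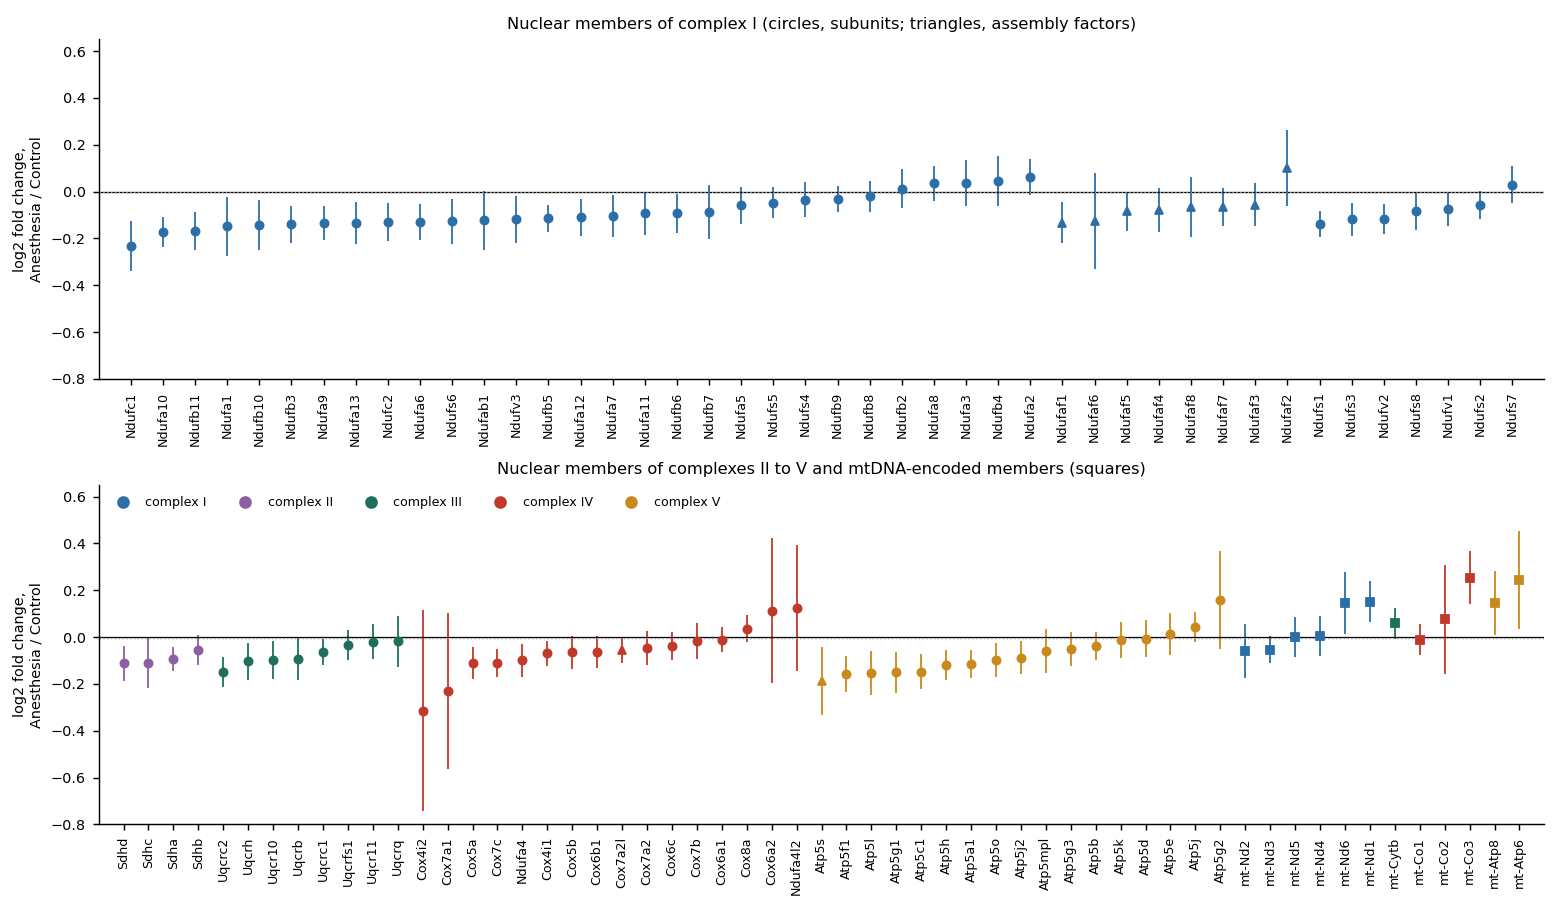
Log2 fold change (Anesthesia over Control, from limma on log2(value + 1)) of every member except mt-Nd4l, each with its standard error as a bar. The upper panel holds nuclear members of complex I, ordered as accessory subunits, assembly factors and core subunits, the lower panel all others by complex, with mtDNA-encoded members as squares at the right and the median of all genes (-0.004) as a dotted line. Most nuclear members lie just under 0, and many of the bars reach or cross it.

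The mtDNA-encoded members lay on the other side. Of 13, 9 (against 49.2% of all genes) were fitted higher under anesthesia, and their log2 fold changes had a median of 0.059, or 0.067 without mt-Nd4l. They took 1.42% ± 0.073 of all normalized counts in Anesthesia mice and 1.38% ± 0.10 in Control mice (SD, n = 4 each), so the groups overlapped. Control replicate 1 was the lowest of the 8 mice for 6 of the 13 as listed, and without it the median was 0.002. The shift of the mtDNA-encoded members as a set was therefore carried by this mouse.

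Among the 7 complex I subunits of mtDNA, mt-Nd1, which sits where the membrane arm meets the coenzyme Q site, had 5333, 4814, 5359 and 5149 normalized counts in Anesthesia mice and 3931, 5374, 4813 and 4570 in Control mice. The groups overlapped, with Control replicate 1 lowest, and the log2 fold change was 0.15 ± 0.087 SE (adjusted p = 0.671 by limma). mt-Nd4 and mt-Nd5, proton-pumping subunits, had log2 fold changes of 0.005 and 0.001, with Anesthesia means of 1654 ± 110 and 1352 ± 83.7 against Control means of 1654 ± 183 and 1355 ± 148 (SD, n = 4). mt-Nd2 and mt-Nd3 had log2 fold changes of -0.059 and -0.053. For mt-Nd6, which is encoded on the other strand of mtDNA and overlaps the end of mt-Nd5, the log2 fold change was 0.14 ± 0.13 SE, and the groups overlapped for all 5 of these genes.

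mt-Cytb, the only mtDNA-encoded subunit of complex III, had 3054, 2868, 2897 and 2907 normalized counts in Anesthesia mice and 2496, 3061, 2914 and 2812 in Control mice. Control replicate 1 was again the lowest, and the log2 fold change was 0.059 ± 0.067 SE (adjusted p = 0.813 by limma). mt-Atp8, a small complex V subunit whose gene overlaps mt-Atp6 on the same strand, had a mean of 203 ± 29.1 in Anesthesia mice and 183 ± 24.4 in Control mice (SD, n = 4) and a log2 fold change of 0.15 ± 0.14 SE.

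Complex IV held the most abundant member. mt-Co1, the catalytic subunit that binds oxygen, had 180430, 161908, 180338 and 163877 normalized counts in Anesthesia mice and 161100, 186040, 169399 and 175032 in Control mice, a log2 fold change of -0.010 ± 0.067 SE. mt-Co3, a structural subunit of the same core, had 69135, 69312, 68776 and 56388 in the Anesthesia group against 55910, 68486, 49428 and 48517 in the Control group. It was high in Anesthesia replicates 1, 2 and 3 and in Control replicate 2, so the groups overlapped. Its log2 fold change was 0.25 ± 0.11 SE (unadjusted p = 0.0451 and adjusted p = 0.622 by limma).

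Other mtDNA-encoded members also had near-identical nuclear copies. A comparison of transcripts of the annotation, with copies defined as at least 95% identity over at least 200 bases, found 6 copies in the table for 5 mtDNA-encoded members, of which 5 lie together on chromosome 1, within GRCm38 chr1:24612407-24616197. Gm28437 is identical to mt-Co3 over 783 bases, Gm28661 to mt-Co2 over 681 and Gm10925 to mt-Atp6 over 678. Gm28437 was lower in the mice in which mt-Co3 was high, with 27305, 18836, 29131 and 36184 normalized counts in Anesthesia mice and 38154, 29836, 44785 and 49608 in Control mice. The sum of mt-Co3 and Gm28437 was 93767 ± 4370 in Anesthesia mice and 96181 ± 2361 in Control mice (SD, n = 4), with a log2 fold change of -0.038 ± 0.053 SE (adjusted p = 0.849 by limma), so the difference at an unadjusted p under 0.05 was not present in the sum.

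The spread between mice narrowed in the same way. mt-Co2, which receives electrons from cytochrome c, had 5038, 7420, 6705 and 11140 normalized counts in Anesthesia mice and 6090, 6585, 5609 and 10072 in Control mice, with replicate 4 the highest of each group. Its coefficient of variation was 34.0% and 28.6% in the Anesthesia and Control groups on its own, and 4.04% and 9.16% once Gm28661 was added. The sum had a log2 fold change of 0.13 ± 0.069 SE (adjusted p = 0.650 by limma), in place of 0.075 for mt-Co2 alone. For mt-Atp6, a membrane subunit of the proton channel of complex V, the coefficients of variation were 17.7% and 31.5% alone and 4.65% and 8.89% summed with Gm10925, and the log2 fold change was 0.24 ± 0.21 SE alone and 0.078 ± 0.070 SE summed. Summed in this way, 0 of the 13 mtDNA-encoded members had an unadjusted p under 0.05 in limma and the smallest adjusted p was 0.650. Their share of all normalized counts with the copies was 1.71% ± 0.10 and 1.73% ± 0.083 (SD, n = 4).

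Complex I holds 36 of the 79 nuclear subunits. Ndufs1, the largest subunit of its electron-carrying arm, had 3211, 3226, 2807 and 3030 normalized counts in Anesthesia mice and 3382, 3341, 3402 and 3359 in Control mice. Every Anesthesia mouse lay below every Control mouse, and the log2 fold change was -0.14 ± 0.057 SE (unadjusted p = 0.0347 and adjusted p = 0.622 by limma). Ndufa10, an accessory subunit of the membrane arm, had 2386, 2178, 2212 and 2072 against 2460, 2575, 2331 and 2601. Only Anesthesia replicate 1 reached into the Control range, and the log2 fold change was -0.17 ± 0.062 SE (unadjusted p = 0.0188 and adjusted p = 0.620 by limma). Ndufb5, a membrane-arm accessory subunit, had 1694, 1503, 1605 and 1657 against 1802, 1733, 1697 and 1749, a log2 fold change of -0.11 ± 0.057 SE (adjusted p = 0.645 by limma). Its gap to the Control group was narrow, and its transcript overlaps that of Mrpl47 on the opposite strand over 216 bases. Of the 36 nuclear subunits, 30 were fitted lower, 6 of 7 core subunits and 24 of 29 accessory ones. Ndufa2, an accessory subunit, had the smallest p of those fitted higher, with 631 ± 28.7 against 606 ± 48.5 (SD, n = 4) and a log2 fold change of 0.061 ± 0.077 SE (adjusted p = 0.833 by limma). Ndufb4, an accessory subunit named after its values were seen, is identical over 390 bases to the processed pseudogene Ndufb4c on chromosome 15 and held 40.6% to 54.0% of their sum. It was fitted higher on its own, at 0.045 ± 0.11 SE, and lower when summed, at -0.046 ± 0.077 SE on the log2 scale.

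All 4 subunits of complex II and all 8 nuclear subunits of complex III that the rule named were fitted lower. Cyc1, the gene of cytochrome c1 in complex III, has a symbol outside the rule and is counted in a separate list. Its log2 fold change was -0.080 ± 0.078 SE. Sdha, the flavoprotein that oxidises succinate in the TCA cycle, had 5315, 4780, 4988 and 5248 normalized counts in Anesthesia mice and 5389, 5584, 5237 and 5454 in Control mice. The groups overlapped, and the log2 fold change was -0.092 ± 0.052 SE (adjusted p = 0.669 by limma). Uqcrc2, a core protein that scaffolds complex III, had 3111, 2973, 2573 and 2999 against 3298, 3272, 3119 and 3206. The groups were separate, though Anesthesia replicate 1 lay just under Control replicate 3. The log2 fold change of Uqcrc2 was -0.15 ± 0.065 SE (unadjusted p = 0.0438 and adjusted p = 0.622 by limma), and its transcript overlaps that of Pdzd9 on the opposite strand over 507 bases. Without strand the reads of such a pair cannot be told apart.

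In complex IV, 12 of 15 nuclear subunits were fitted lower. Cox7c, a small subunit present in all tissues, had 2317, 2220, 2015 and 2184 normalized counts in Anesthesia mice and 2354, 2498, 2265 and 2305 in Control mice, a log2 fold change of -0.11 ± 0.061 SE (adjusted p = 0.665 by limma). Cox8a, another small subunit, had 4278 ± 204 and 4172 ± 209 (SD, n = 4) and a log2 fold change of 0.036 ± 0.057 SE, the smallest p among those fitted higher. The isoforms known from other tissues or from low oxygen were near the minimum of the filter. In Control mice, Cox4i1, the common form, had 7958 normalized counts per kb of transcript and Cox4i2, its lung and hypoxia form, 16.5, a ratio of 482. The ratio was 152 for Cox6a1 over the muscle form Cox6a2, 85.1 for Cox7a2 over the muscle form Cox7a1 and 208 for Ndufa4 over Ndufa4l2, a hypoxia-induced relative. In Anesthesia mice these 4 ratios were 507, 132, 95.7 and 185. The log2 fold changes of Cox4i2, Cox6a2, Cox7a1 and Ndufa4l2 were -0.31, 0.11, -0.23 and 0.13, with standard errors of 0.27 to 0.43, so no switch between isoforms was detectable at these levels.

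Among the 16 nuclear subunits of complex V, 13 were fitted lower. Atp5f1, the peripheral stalk subunit b, had 4655, 4387, 3579 and 4418 normalized counts in Anesthesia mice and 4801, 4791, 4561 and 4758 in Control mice. Anesthesia replicate 3 was far below the others and Anesthesia replicate 1 within the Control range, and the log2 fold change was -0.16 ± 0.078 SE (adjusted p = 0.636 by limma). Atp5g2 is 1 of 3 genes for the same proton-carrying subunit c, and had 260, 228, 126 and 249 normalized counts against 207, 160, 191 and 188. Its log2 fold change was 0.16 ± 0.21 SE (adjusted p = 0.840 by limma). Its processed pseudogene Gm10175 on chromosome 7 is identical to it over 645 bases and was listed at a higher level, a mean of 760. With both rows summed, the values were 1010, 941, 812 and 979 against 956, 989, 996 and 1010, and the log2 fold change turned to -0.083 ± 0.076 SE, the side of most other subunits.

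Of the 10 assembly factors, 9 were fitted lower, with a median log2 fold change of -0.071. Ndufaf1, which helps to assemble the membrane arm of complex I, had 350, 418, 342 and 406 normalized counts in Anesthesia mice and 417, 412, 423 and 405 in Control mice, a log2 fold change of -0.13 ± 0.087 SE (adjusted p = 0.699 by limma). Ndufaf2, a late assembly factor, had the opposite sign, with 135 ± 16.2 against 127 ± 24.7 (SD, n = 4) and a log2 fold change of 0.10 ± 0.16 SE.

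The shift of the nuclear subunits was uneven across the Anesthesia mice. Relative to the Control mean of each gene, the median log2 deviation of the 79 subunits was 0.067, -0.084, -0.231 and -0.062 in Anesthesia replicates 1 to 4 and -0.007, 0.024, -0.041 and 0.019 in Control replicates 1 to 4. Anesthesia replicate 3 was the lowest of the 8 mice for 58 of the 79, and Anesthesia replicate 1 the highest of the 8 for 38. The coefficient of variation was larger in the Anesthesia group for 65 of 79 (82.3%), with a median of 9.34% against 4.31% in the Control group, whereas it was larger for 59.7% of all genes tested, with medians of 13.4% and 11.4%. The order of the mice was alike in the complexes: Anesthesia replicate 3 had the lowest median and Anesthesia replicate 1 the highest of all 8 in each of complexes I to V.

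**Figure D3:**
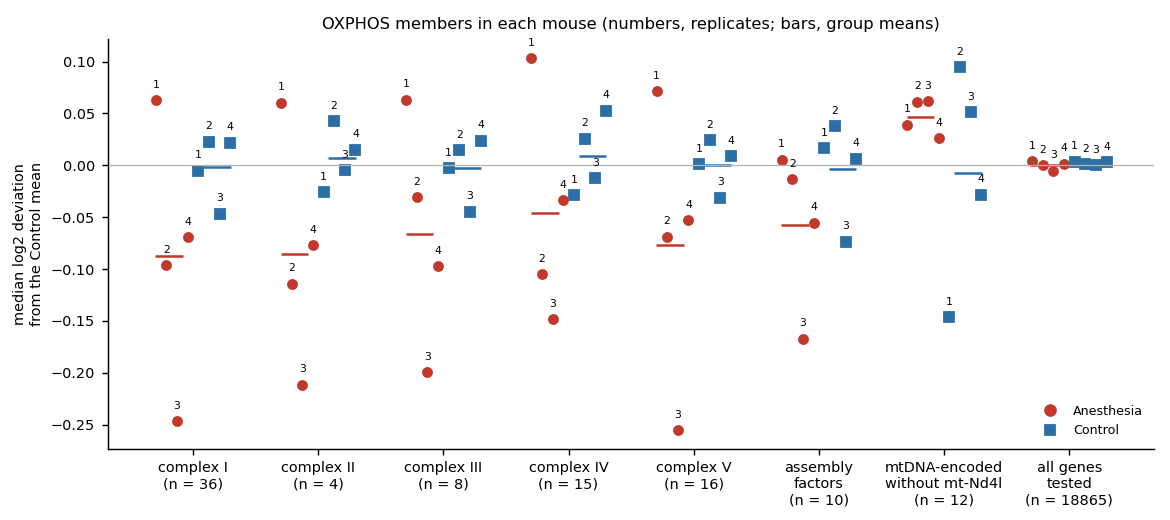
Median log2 deviation from the Control mean in each mouse (red circles, Anesthesia replicates; blue squares, Control replicates; digits, replicate numbers; bars, group means), for the nuclear subunits of each complex, the assembly factors, 12 mtDNA-encoded members and all genes tested. Anesthesia replicate 1 lies above and Anesthesia replicate 3 below the Control mice in every complex, and Control replicate 1 lies lowest for the mtDNA-encoded members.

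The comparison moved with those mice. Without Anesthesia replicate 1 the nuclear median was -0.135, and 23 of 102 members (22.5%) were lower at an unadjusted p under 0.05 in limma, against 5.1% of all genes tested in that setting. They comprised 10 of 44 nuclear members of complex I, 1 of 4 of complex II, 2 of 8 of complex III, 2 of 16 of complex IV, 7 of 17 of complex V and mt-Nd4l. Ndufc1, a complex I accessory subunit, had the smallest p of the nuclear members there, with a log2 fold change of -0.34 ± 0.077 SE (adjusted p = 0.267 by limma), and is named after its values were seen. Without Anesthesia replicate 3 the nuclear median was -0.035, and 2 members were lower and 1 higher, against 2.31% and 3.32% of all genes. No nuclear member had an adjusted p under 0.05 with any mouse left out.

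Marker levels also differed between these mice. Anesthesia replicate 1 was the Anesthesia mouse rich in choroid plexus transcripts, 15 of 15 of whose markers were fitted lower in the Anesthesia group, with Kcne2 at 0 in Control replicate 1. Among the choroid plexus-poor libraries, the nuclear median deviations were -0.084, -0.231 and -0.062 in Anesthesia replicates 2 to 4 and -0.007 in Control replicate 1, and among the rich ones 0.067 in Anesthesia replicate 1 and 0.024, -0.041 and 0.019 in Control replicates 2 to 4, too few for a test within either. With the choroid plexus level as a covariate the nuclear median was -0.031. In that fit 1 member, mt-Nd4l, was lower at an unadjusted p under 0.05 in limma, against 1.78% of all genes. Most Anesthesia libraries were poor and most Control libraries rich, so this fit cannot fully separate group from choroid plexus level. Anesthesia replicate 3, the lowest for the nuclear subunits, also had the lowest median deviation of CA1 pyramidal neuron markers, -0.46, and of dentate granule neuron markers, -0.53, and the highest of endothelial markers, 0.22, and pericyte markers, 0.16. The other mice did not keep that order: Anesthesia replicate 1, the highest for the nuclear subunits, was at -0.087 for CA1 and -0.12 for dentate markers, and Anesthesia replicate 2, below every Control mouse for the nuclear subunits, at 0.13 and 0.59. In Anesthesia replicate 3 the summed level of the 11 CA1 markers was 14051 normalized counts, against 16094 to 19720 in the other 7 mice. None of these markers was at 0, and 8 of 11 were fitted lower in the Anesthesia group. Of 8 nuclear-retained RNAs, such as Malat1, 7 were fitted higher in the Anesthesia group and 3 were higher at an unadjusted p under 0.05 in limma (4.75% of all genes), with summed levels of 365510 to 415807 normalized counts against 339644 to 363145 and none at 0. Their median deviation was 0.10, -0.01, 0.29 and 0.24 in Anesthesia replicates 1 to 4, and their part in the OXPHOS values, as that of the other lists, was not tested.

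**Figure D4:**
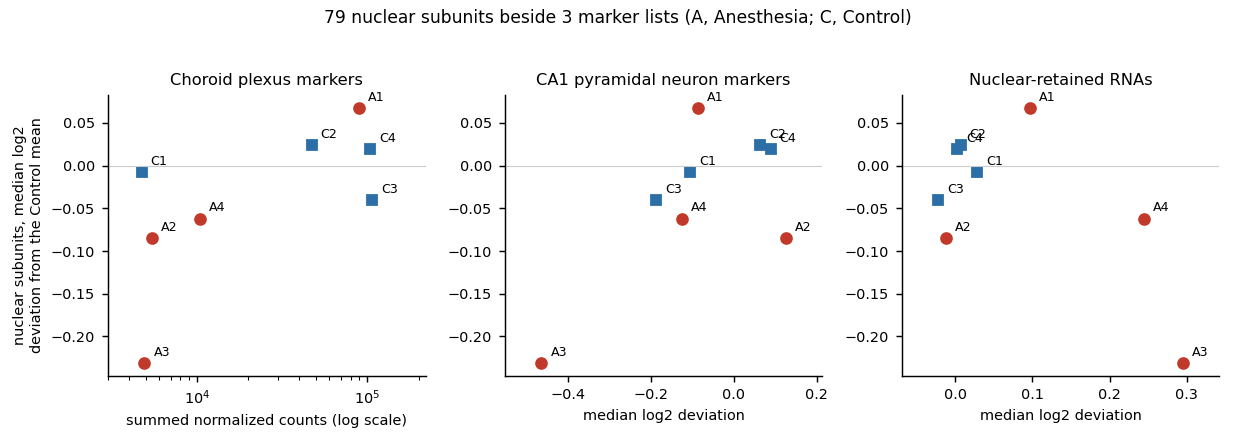
Median log2 deviation of the 79 nuclear subunits (vertical axis) against the summed normalized counts of choroid plexus markers (log scale) and the median log2 deviation of CA1 pyramidal neuron markers and nuclear-retained RNAs, 1 point per mouse (A1 to A4, Anesthesia; C1 to C4, Control). A3 has the lowest nuclear median, -0.231, together with the lowest CA1 and the highest nuclear-retained deviation.

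Other genes of respiration, listed by name, lay mostly on the side of the nuclear subunits. Of 17 enzymes of the TCA cycle and of the pyruvate dehydrogenase complex, 16 were fitted lower (median log2 fold change -0.114). Those of pyruvate dehydrogenase are Pdha1, Pdhb, Dlat and Pdhx. At an unadjusted p under 0.05 in limma, 4 were lower, Idh3a, Suclg2, Fh1 and Pdha1, against 3.27% of all genes. That share also stands beside the counts of the next lists. Of 78 proteins of the mitochondrial ribosome, 66 were fitted lower (median -0.089, 4 with an unadjusted p under 0.05), as were 17 of 18 genes for cytochromes c and c1, electron transfer flavoprotein and coenzyme Q synthesis (median -0.075, 1 with an unadjusted p under 0.05, Etfb). A list of ATP, phosphate and anion carriers with mitochondrial creatine kinase and the ATP synthase inhibitor was fitted lower in 9 of 11 (median -0.114, none with an unadjusted p under 0.05). Of 30 assembly factors of complexes II to V, 20 were fitted lower (median -0.064), 4 of them with an unadjusted p under 0.05: Sdhaf4, Cox11, Cox19 and Cox20. For the 10 complex I assembly factors with other names the median was -0.037, with 0 at an unadjusted p under 0.05, and for 21 genes of mtDNA transcription and RNA handling it was -0.061, with Slirp alone lower at that level. None of these lists held a gene with an adjusted p under 0.05. The medians stayed under 0 with each mouse left out. Without Anesthesia replicate 3, however, they were -0.071 for the list with the TCA cycle, -0.049 for the mitochondrial ribosome and -0.069 for the list with the carriers. In that setting they were -0.009 for these complex I assembly factors and -0.012 for mtDNA transcription and RNA handling. For the assembly factors of complexes II to V the median ran from -0.090 to -0.022 with a mouse left out, lowest without Anesthesia replicate 1 and highest without Control replicate 4.

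The regulators of mitochondrial biogenesis lay on the opposite side, with 8 of 11 fitted higher and a median of 0.067, and 2 higher at an unadjusted p under 0.05 in limma, against 4.75% of all genes. This side rested on single mice, and leaving out Anesthesia replicate 3, Control replicate 1 or Anesthesia replicate 2 gave medians of 0.004, 0.026 and 0.158. Nrf1, a transcription factor known to drive many nuclear OXPHOS promoters, had 495, 521, 453 and 491 normalized counts in Anesthesia mice and 382, 440, 409 and 445 in Control mice. Every Anesthesia mouse was above every Control mouse, and the log2 fold change was 0.23 ± 0.081 SE (unadjusted p = 0.0187 and adjusted p = 0.620 by limma). Ppargc1a, a coactivator of this programme, had 678 ± 90.1 and 645 ± 60.6 (SD, n = 4). Tfam, which packages mtDNA and helps to start its transcription, had 609 ± 97.9 and 663 ± 91.9 (SD, n = 4). Their log2 fold changes were 0.068 and -0.12. Pprc1, a relative of Ppargc1a, was the other regulator with an unadjusted p under 0.05, at a log2 fold change of 0.45 ± 0.19 SE (adjusted p = 0.622 by limma), and its groups overlapped.

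Promoters of the nuclear members were read for the core motif that NRF1 is known to bind. RefSeq promoters (GRCm38.p6) were matched for 71 of the 89 nuclear members (79.8%), under the 80% set for comparing a share, so no share of the members is read against other genes. The 10 letters of the NRF1 core, given in capitals in the lines below, are the same on both strands. They were found within 250 bases before the RefSeq start in 5 of the 71. They stood in 0.877% of the 27025 genes of the promoter table, and in 1.68% of the 12186 tested genes that have a promoter in it. The RefSeq start can differ from the gene annotation used elsewhere here. By that annotation the windows of Atp5g2 and Atp5k overlap the genes themselves. A match of letters is a description and not a binding site. The 30 bases around the NRF1 core are shown for the 5 members, with the core in capitals.
Atp5g2, minus strand of chr15:102671070-102671099: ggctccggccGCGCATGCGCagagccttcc
Atp5k, minus strand of chr5:108434430-108434459: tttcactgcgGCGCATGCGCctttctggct
Cox6a1, minus strand of chr5:115349101-115349130: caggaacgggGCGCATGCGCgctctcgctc
Ndufa11, plus strand of chr17:56717692-56717721: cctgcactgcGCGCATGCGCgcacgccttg
Ndufaf4, plus strand of chr4:24897960-24897989: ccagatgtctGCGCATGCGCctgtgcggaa

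The log2 fold changes of the 5 members were 0.16 for Atp5g2, -0.012 for Atp5k, a small membrane subunit of complex V, -0.011 for Cox6a1, -0.093 for Ndufa11, a complex I accessory subunit, and -0.078 for Ndufaf4, a complex I assembly factor. Their standard errors were 0.054 to 0.21. Atp5g2 had the highest fitted value of all 89 nuclear members before it was summed with its pseudogene, and the other 4 lay on the lower side as most did.

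Levels per length differed far more between members than between groups. In Control mice, mt-Co1 had 111905 normalized counts per kb of transcript, mt-Co3 70899, mt-Nd3 23142 and mt-Co2 10364, while mt-Nd2, transcribed from the same strand, had 435. Nuclear subunits other than tissue isoforms ran from 204 for Ndufab1 to 10435 for Atp5b, the catalytic beta subunit of ATP synthase, with a median of 1594. By complex their median was 1133 for complex I, 1242 for complex II, 2234 for complex III, 3688 for complex IV and 2220 for complex V, and in Anesthesia mice it was 1069, 1179, 2122, 3537 and 2131 in the same order. Assembly factors of complex I were lower, with a median of 205. These levels divide by 1 annotated transcript per gene, and those of mt-Co2, mt-Co3, mt-Atp6, Atp5g2 and Ndufb4 leave out what their copies hold. Nuclear subunit transcripts were short, with a median of 865 bases against 2902 for all genes tested, and with each library corrected for GC content and length the median log2 fold change of the nuclear subunits was -0.071.

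**Figure D5:**
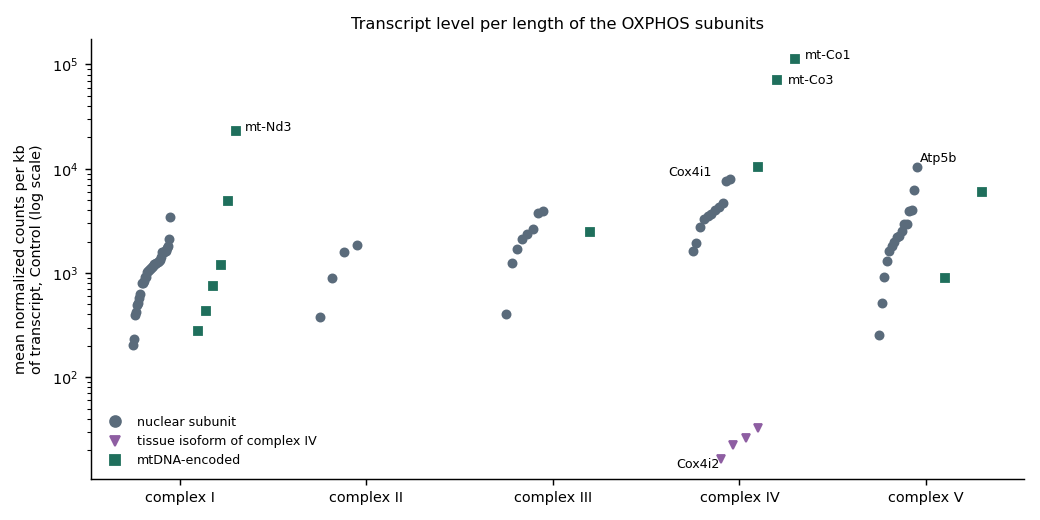
Mean normalized counts per kb of transcript in the 4 Control mice (log scale) for the subunits of each complex, with nuclear subunits as grey circles, tissue isoforms of complex IV as purple triangles and mtDNA-encoded subunits as green squares, mt-Nd4l left out. mt-Co1 is highest at 111905, and the tissue isoforms lie at 16.5 to 32.4.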

How the data were processed

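RNA-sequencing of 8 hippocampi was analysed, 4 per group, each column being matched to its mouse by group letter and number. The authors estimated abundance with Salmon v1.1.0 on GRCm38 with GC bias correction, imported it per gene with tximport and deposited DESeq2-normalized counts, a normalized signal that is not read counts. Salmon shares out reads that match several transcripts by estimation, so that near-identical genes can trade signal. The low values lay within 0.1 of whole reads for only 41.7% to 65.3% per library, so counts were not recovered, and the study's DESeq2 test was replaced by limma 3.58.1 (R 4.3.3) with a mean-variance trend on log2(value + 1), over the 18865 genes whose mean reached 10, without covariates. Benjamini-Hochberg adjustment covered all genes (threshold 0.05). This log2 scale understates changes of low genes. Fold changes are Anesthesia over Control.

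Symbols and transcripts came from GENCODE M21 (20784 of 20802 identifiers), and copies were found with blastn 2.17.0. Named members are all mtDNA-encoded ones, the smallest p in each direction per complex and among assembly factors, complex IV tissue isoforms, members called with any mouse left out, Ppargc1a, Nrf1, Tfam and called copies of mtDNA genes. Members and lists were chosen with earlier results of these data known. The pairwise SD of log2 ratios between libraries was 0.450 to 0.672, so none was a repeat of another. The scripts were tested on simulated data. Alternatives were another test, other scalings, filters and pseudocounts, a replicate block, a GC and length correction, a choroid plexus covariate, a robust spread, each mouse left out and a threshold of 0.10. Sums with near-identical copies were added after the data were seen.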

Additional observations from a re-analysis of the deposited data

Results flagged for a closer look

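Within groups of 4, a mouse was singled out where its gap to the nearest other mouse took up more of the range of the group than Dixon's critical value, a limit that chance passes in about 1 of 20 groups. Of 84 groups examined, 2 passed, where chance gives about 4.2. Anesthesia replicate 4 had 56388 normalized counts of mt-Co3, the complex IV subunit, against 68776 to 69312 in the other Anesthesia mice, and it also had the most of the copy Gm28437 in that group. Anesthesia replicate 1 had 24.2 normalized counts of Ndufa4l2, the low-oxygen relative of Ndufa4, against 21.2 to 21.4 in the others, a difference of a few reads.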

How the results depend on the processing

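No member was called under any alternative except without Control replicate 1, when mt-Nd4l was, so that with a mouse left out the count of called members was 0 to 1. Members lower at an unadjusted p under 0.05 numbered 4 in the reported test, 2 when corrected for GC content and transcript length, 1 with that correction and the replicate block, 1 with the choroid plexus covariate, 1 with members summed without Control replicate 1, and 1 to 23 with a mouse left out. Members higher at that level numbered 1, 0 under both settings with members summed, and 0 to 2 with a mouse left out. Over all genes, both directions together, 1513 of 18865 were at that level in the reported limma test. The count was 1273 of 18849 with the GC and length correction, and 950 of 18849 with the replicate block added. It was 857 of 18865 with the choroid plexus covariate and 1061 to 2024 with a mouse left out. With members summed it was 1508 of 18856, and 1420 of 18879 without Control replicate 1. The medians of the nuclear subunits and of the mtDNA-encoded members kept their sign under every setting run, from -0.135 to -0.031 and from 0.002 to 0.096. Summing mt-Nd4l with Gm10222 turned its fitted log2 fold change to 0.27, and to 0.31 without Control replicate 1. The cause of the other changes was not tested.

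The replicate numbers were not treated as pairs. Deviations of same-numbered mice did not go together, with correlations of -0.242, -0.109, -0.182 and 0.0194. Whether the mice were paired cannot be decided from them. With the replicate block 0 members were called and 3 were lower at an unadjusted p under 0.05 in limma. Of all 18865 genes, 1084 were at that level in either direction.

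Depth limits the low members, such as the complex IV tissue isoforms, which went down to 4.42 normalized counts for Cox4i2 in Anesthesia replicate 1, and 4 mice per group limit the rest. The library kit is given in 2 ways by the sources, and reads of genes that overlap on opposite strands cannot be told apart without strand. Levels of genes with a near-identical copy depend on how reads were shared out.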
